A study of Homo sapiens with 12 samples.

Results

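Hypoxic LN229 cells treated with HIF1A siRNA were compared with normoxic LN229 cells, using 6 of the 12 arrays of the series, 3 in each group, chosen by their titles. LN229 is an established human glioblastoma line. The first group was kept at 1% oxygen after transfection with siRNA against HIF1A, and the second at 20% oxygen after transfection with a non-targeting siRNA. Both were transfected 24 h after seeding, exposed from 48 h after transfection, and harvested 16 h later. Affymetrix whole transcript arrays gave 1 value for each probe set, treated here as log2 expression, for 14232 genes. The other arrays, 3 each, came from cells at 1% oxygen with the non-targeting siRNA (control hypoxia below) or with siRNA against HIF2A, the protein of the gene EPAS1. No normoxic cells with HIF1A siRNA are among the 12 arrays, so in this comparison the effect of low oxygen and any effect of the HIF1A siRNA outside hypoxia cannot be told apart. The labels do not say whether the 3 replicates of a group were grown as separate cultures; the p-values therefore reflect the spread among these arrays alone, and part of that spread may be technical.

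Hypoxia-inducible factors are pairs of an oxygen-labile alpha subunit, HIF-1A or HIF-2A, and the stable partner ARNT. In normal oxygen, prolyl hydroxylases of the EGLN family mark the alpha subunit for destruction through VHL; in hypoxia it is kept, enters the nucleus and activates genes of glycolysis, angiogenesis, matrix enzymes and mitochondrial turnover through DNA sites with the core ACGTG or GCGTG. Low oxygen also acts through routes that need no HIF, among them the stress kinases that raise translation of ATF4, a factor for genes of amino acid supply, and slowed DNA synthesis.

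HIF1A itself (probe set 3539070, chromosome 14) read 11.59, 11.48 and 11.50 on the normoxia arrays and 8.20, 9.06 and 7.74 on the HIF1A siRNA arrays, in replicate order. The groups did not overlap, and the array with the highest remaining level was HIF1A siRNA replicate 2. The difference was -3.19 log2 units (SE 0.27, adjusted p = 0.000582 by limma), or 9.15-fold lower, and the siRNA arrays spread over a wider range (SD 0.67, n = 3) than the normoxia arrays (SD 0.06, n = 3). EPAS1 read 8.55, 8.42 and 8.59 in normoxia, 9.74, 9.57 and 9.83 in control hypoxia, and 8.60, 8.08 and 8.02 in hypoxia with HIF1A siRNA. Its values with HIF1A siRNA overlapped those of normoxia, and the difference of -0.29 (SE 0.15, adjusted p = 0.148) did not pass the test. It turned to 0.14 after quantile normalization and was called, at -0.47, without HIF1A siRNA replicate 1 (adjusted p = 0.011; from 0.011 to 0.499 over the settings run). EPAS1 was 1.48 log2 units lower with HIF1A siRNA than in control hypoxia (SE 0.15, 95% interval -1.81 to -1.15, adjusted p = 0.000313), so the hypoxic cells with HIF1A siRNA also held less EPAS1 transcript than the hypoxic controls.

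The response of all genes depended on how the arrays were put on a common scale, so the counts and medians of each gene list against normoxia are given on the deposited values and after quantile normalization. Values of single genes are on the deposited scale unless stated. On the deposited values, 664 genes were called higher in hypoxia with HIF1A siRNA than in normoxia (4.67% of the genes tested) and 4322 lower (30.4%), at an adjusted p under 0.05 by limma. After quantile normalization, which gives every array the same distribution, 2241 were called higher (15.7%) and 2082 lower (14.6%). The share of rises among all calls went from 13.3% to 51.8% with quantile normalization. Both scales called 663 genes higher and 2082 lower in common, and 0 genes were called in opposite directions. The median difference over all genes was -0.12 on the deposited values and 0.08 after quantile normalization. With a change of at least 1.5-fold as well, 81 genes were higher (0.569%) and 2880 lower (20.2%) on the deposited values, against 532 (3.74%) and 1047 (7.36%) after quantile normalization. As these are bulk RNA values, fewer cells of a type and less RNA per cell cannot be told apart.

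**Figure D1:**
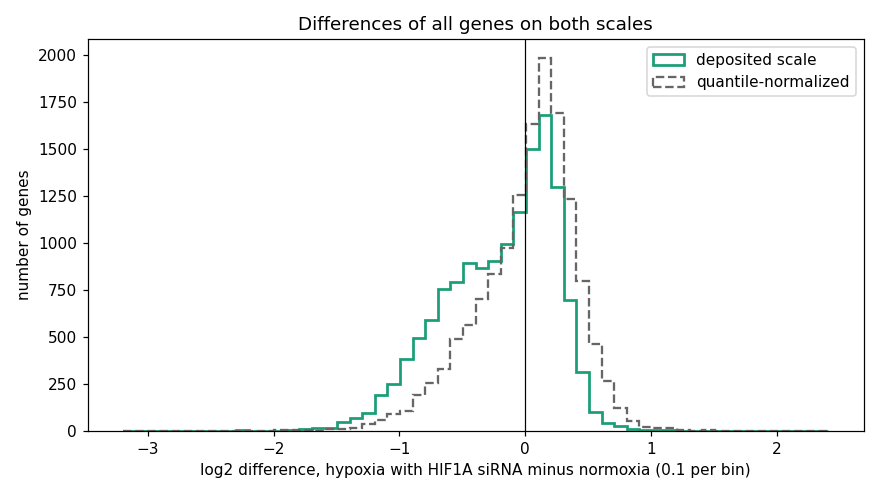
Histogram of the log2 difference of all 14232 genes, hypoxia with HIF1A siRNA minus normoxia, in bins of 0.1 (x axis, log2 units; y axis, number of genes), on the deposited values (solid line) and after quantile normalization (dashed line). The deposited values have a broad shoulder of genes below 0, and the median moves from -0.12 to 0.08 with quantile normalization.

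The HIF1A siRNA arrays had lower upper quartiles over all probe sets (8.22, 8.20 and 7.88) than the normoxia arrays (8.57, 8.47 and 8.52). The upper quartiles were 8.5, 8.27 and 8.34 in control hypoxia and 8.44, 8.24 and 8.44 with HIF2A siRNA. HIF1A siRNA replicate 3 stood lowest of the 12 arrays. The gap between HIF1A siRNA and normoxia lay in the genes with higher values. In the 3558 genes with the lowest mean level the median difference was 0.10 on the deposited values and 0.13 after quantile normalization, and in the 3558 with the highest it was -0.43 and -0.05. Correlations between arrays within the HIF1A siRNA group ran from 0.983 to 0.987, against 0.993 to 0.994 within normoxia. They ran from 0.986 to 0.991 within control hypoxia and also within the HIF2A siRNA group. Without HIF1A siRNA replicate 3, 294 genes were called higher and 2429 lower on the deposited values, and 625 and 817 after quantile normalization, with rises at 43.3% of the calls on that scale. Single normoxia arrays moved the counts as much: without normoxia replicate 1 the calls were 149 higher and 2212 lower, without replicate 2 they were 346 and 3417, and without replicate 3 they were 255 and 2894. Without HIF1A siRNA replicate 1, 395 genes were called higher. Of the calls of at least 1.5-fold, 2880 falls became 1512 without HIF1A siRNA replicate 3 and 1759 without normoxia replicate 1, and 81 rises became 123 without HIF1A siRNA replicate 2. What sets the lower range of these arrays was not tested.

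**Figure D2:**
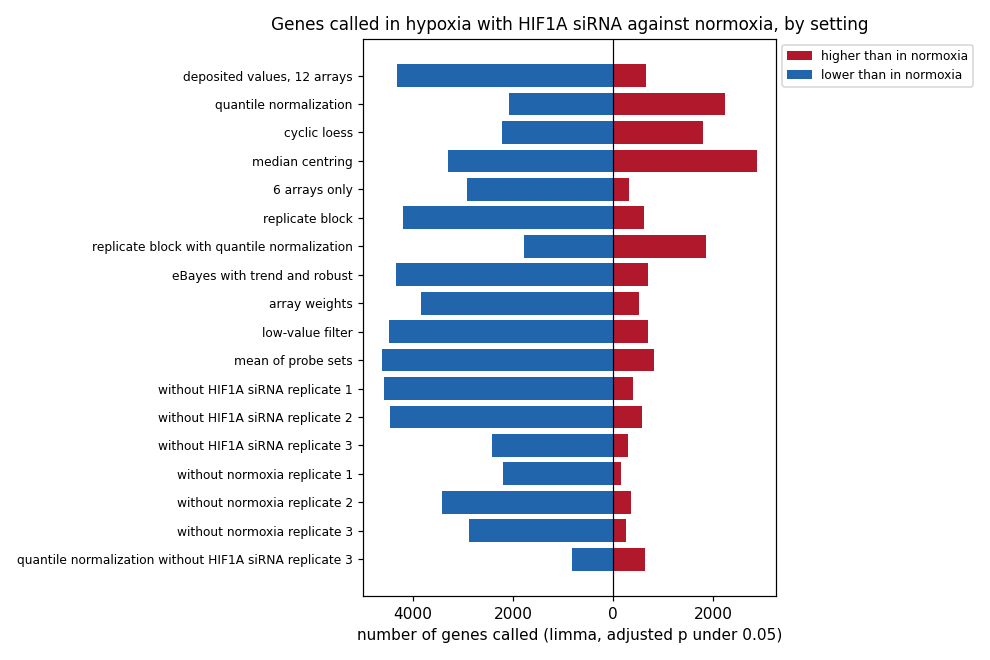
Number of genes called higher (bars to the right) and lower (bars to the left) in hypoxia with HIF1A siRNA than in normoxia, by limma at an adjusted p under 0.05, for the deposited values of all 12 arrays (top) and for each other setting. The 3 scalings that bring the arrays together give from 1795 to 2882 rises, against 664 on the deposited values, and leaving out normoxia replicate 1 leaves 149.

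The largest rise was that of NDRG1, a stress-responsive gene strongly induced by low oxygen in many cell types. NDRG1 read 9.28, 9.19 and 9.28 in normoxia and 11.30, 11.38 and 11.07 in hypoxia with HIF1A siRNA, against 12.43, 12.41 and 12.26 in control hypoxia. All 3 arrays with HIF1A siRNA lay between the 2 groups with the non-targeting siRNA. The rise over normoxia was 2.00 log2 units (SE 0.11, 4.00-fold, adjusted p = 1.47e-05) and 2.29 after quantile normalization, while the level was 1.12 log2 units below that of control hypoxia (SE 0.11, adjusted p = 0.000269). VEGFA, the main angiogenic growth factor, read 7.87, 7.69 and 7.80 in normoxia and 9.46, 9.26 and 8.98 with HIF1A siRNA. It lay higher in all 3 arrays, by 1.44 (SE 0.13, 2.71-fold, adjusted p = 0.000582) and by 1.83 after quantile normalization, and 0.93 below control hypoxia, where it read 10.17, 10.07 and 10.25 (adjusted p = 0.00173). ALDOC, an aldolase of glycolysis, read 7.29, 7.12 and 7.06 in normoxia, 8.87, 9.06 and 8.42 with HIF1A siRNA, and 10.63, 10.65 and 10.53 in control hypoxia. Its rise over normoxia of 1.62 (SE 0.15, 3.08-fold, adjusted p = 0.00059) stood beside a difference of -1.82 from control hypoxia (SE 0.15, adjusted p = 0.000136).

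HK2, a hexokinase of glycolysis, came closer to its level in control hypoxia. It read 8.15, 8.07 and 8.10 in normoxia, 9.66, 9.39 and 9.50 with HIF1A siRNA, and 9.83, 9.99 and 9.93 in control hypoxia. The siRNA arrays did not overlap either group, with a rise of 1.41 over normoxia (SE 0.10, 2.65-fold, adjusted p = 0.000112) and a level 0.40 below control hypoxia (SE 0.10, adjusted p = 0.0271). This last difference was lost under 9 of 19 settings, where its adjusted p ran up to 0.413, among them quantile normalization, which made it -0.16. It was also lost without HIF1A siRNA replicate 3 and without any single control hypoxia array. ANGPTL4, a secreted regulator of lipoprotein lipase, rose by 1.22 (SE 0.16, adjusted p = 0.00239) and lay 2.10 below control hypoxia. STC1, a secreted stanniocalcin, rose by 1.13 and lay 2.15 below control hypoxia. ENO2, an enolase, rose by 0.99 and lay 1.78 below it, and CP, the copper-carrying ferroxidase ceruloplasmin, rose by 1.01 and lay 1.62 below it. DDIT4, an inhibitor of mTORC1, rose by 1.17 and lay 0.87 below control hypoxia. PDK1, a pyruvate dehydrogenase kinase, rose by 1.06 and lay 1.09 below it. P4HA1, a collagen prolyl hydroxylase, rose by 1.01 and lay 1.06 below it. Of the 15 largest rises, 14 were called under all 17 other settings. The exception was PRLH, a prolactin-releasing peptide gene, with a rise of 0.92 (adjusted p = 0.0265) that was lost under 5 settings, among them those without HIF1A siRNA replicate 3 or normoxia replicate 1, with adjusted p up to 0.0978.

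**Figure D3:**
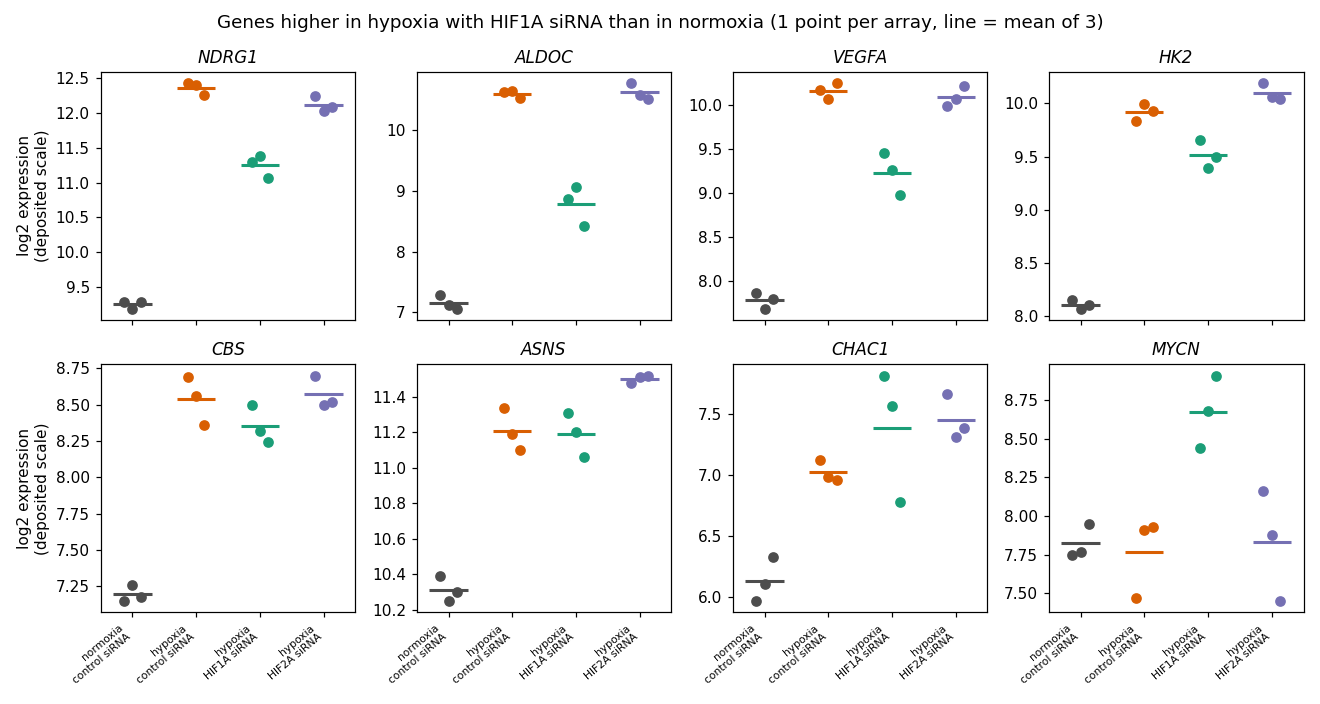
Log2 expression on the deposited scale (y axis, a separate range in each panel) of 8 genes in the 4 groups (x axis), with 1 point per array and a line at the mean of 3 arrays. NDRG1, ALDOC and VEGFA with HIF1A siRNA lie between normoxia and control hypoxia, ASNS lies at its level in control hypoxia, and MYCN is higher with HIF1A siRNA than in either group with the non-targeting siRNA.

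The promoters of some of these genes are shown because they rose although HIF1A transcript was low. Sequences are from RefSeq on GRCh38.p14, 250 bases before the transcription start, 5′ to 3′ on the strand of the gene. Capitals mark matches to ACGTG or GCGTG, the core of the HIF site, and to TGATGNAA, a pattern of sites for ATF4 with C/EBP partners, each on either strand. ALDOC (chr17:28576896-28577145, minus strand), HK2 (chr2:74833877-74834126, plus strand), CHAC1 (chr15:40953221-40953470, plus strand) and ANGPTL4 (chr19:8363905-8364154, plus strand) are the 4 largest rises with a HIF core among those with an entry in the table. ASNS (chr7:97872409-97872658, minus strand) and AARS1 (chr16:70289507-70289756, minus strand) rose and lay near their levels in control hypoxia.
ALDOC: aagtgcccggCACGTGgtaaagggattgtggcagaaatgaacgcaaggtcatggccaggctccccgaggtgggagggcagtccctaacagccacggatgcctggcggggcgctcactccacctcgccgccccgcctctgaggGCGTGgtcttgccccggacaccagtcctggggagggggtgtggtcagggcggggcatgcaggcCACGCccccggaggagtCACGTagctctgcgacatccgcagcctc
HK2: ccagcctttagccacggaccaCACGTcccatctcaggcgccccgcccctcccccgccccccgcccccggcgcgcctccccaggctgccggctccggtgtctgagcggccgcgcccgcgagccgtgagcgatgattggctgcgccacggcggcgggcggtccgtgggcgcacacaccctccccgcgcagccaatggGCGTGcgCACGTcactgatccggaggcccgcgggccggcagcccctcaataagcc
CHAC1: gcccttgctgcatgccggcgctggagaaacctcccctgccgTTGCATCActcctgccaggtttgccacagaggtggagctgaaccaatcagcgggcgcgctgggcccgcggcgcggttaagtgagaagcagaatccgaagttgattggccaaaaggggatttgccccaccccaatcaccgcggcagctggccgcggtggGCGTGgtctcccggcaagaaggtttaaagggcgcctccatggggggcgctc
ANGPTL4: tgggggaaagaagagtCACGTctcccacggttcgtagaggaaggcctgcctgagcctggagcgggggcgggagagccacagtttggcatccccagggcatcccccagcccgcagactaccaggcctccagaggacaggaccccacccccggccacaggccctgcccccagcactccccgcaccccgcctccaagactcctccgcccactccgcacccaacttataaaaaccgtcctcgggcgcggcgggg
ASNS: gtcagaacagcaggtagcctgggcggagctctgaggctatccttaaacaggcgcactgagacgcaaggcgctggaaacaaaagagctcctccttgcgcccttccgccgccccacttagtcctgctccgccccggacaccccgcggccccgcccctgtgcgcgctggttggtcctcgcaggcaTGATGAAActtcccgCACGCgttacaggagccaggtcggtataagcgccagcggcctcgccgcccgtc
AARS1: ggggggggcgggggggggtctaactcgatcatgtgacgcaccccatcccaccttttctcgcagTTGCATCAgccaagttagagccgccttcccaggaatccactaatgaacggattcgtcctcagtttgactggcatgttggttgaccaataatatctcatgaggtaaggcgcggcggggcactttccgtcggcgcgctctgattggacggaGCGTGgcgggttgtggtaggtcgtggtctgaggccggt
The ALDOC window held 5 matches, and the pair that starts 240 and 239 bases before the start overlaps as the palindrome CACGTG, read on both strands. The HK2 window held 3, which start 229, 55 and 48 bases before the start. In CHAC1 the match to TGATGNAA starts 209 bases before the start and GCGTG 51 bases before it. ASNS has TGATGAAA at 68 and CACGC at 53, and AARS1 has TTGCATCA at 187 and GCGTG at 38 bases before the start. ACGTG or GCGTG is common in windows of this length: 5880 of 11385 promoters (51.6%) held it. The share was 34 of 61 (55.7%) among rises of at least 1.5-fold, 1445 of 2444 (59.1%) among falls, and 9 of 11 (81.8%) among the 15 largest rises that have an entry. TGATGNAA was in 231 of 11385 promoters (2.03%), in 5 of 61 (8.20%) of the rises and in 26 of 2444 (1.06%) of the falls. The search for TGATGNAA and the choice of ASNS and AARS1 were made after their values were seen. A match is a stretch of letters and shows no binding.

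Glycolysis was the metabolic pathway with the most rises among those listed. Of 19 measured genes of glucose uptake and glycolysis, 9 rose and 1 fell on the deposited values, with a median difference of 0.29 against -0.12 over all genes. After quantile normalization 12 rose and 0 fell, with a median of 0.54 against 0.08. Of all genes, 4.67% rose and 30.4% fell on the deposited values, and 15.7% and 14.6% after quantile normalization. In control hypoxia, against the same normoxia arrays, 13 rose and the median was 1.23; 480 of all genes (3.37%) were called higher there. The difference between both hypoxic groups was called lower with HIF1A siRNA for 13 of the 19 genes (10.2% of all genes were), with a median of -0.75 on the deposited values and -0.59 after quantile normalization. PFKFB4, which makes the allosteric activator of phosphofructokinase, rose by 0.60 and PGK1, a kinase that makes ATP in glycolysis, by 0.51 (adjusted p = 0.03). PFKFB3, a relative of PFKFB4, fell by 0.56 on the deposited values but was -0.15 and not called after quantile normalization. PDK3, a pyruvate dehydrogenase kinase that read 1.35 above normoxia in control hypoxia, was at -0.17 with HIF1A siRNA and did not pass the test.

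Of 9 measured glycogen genes, 1 rose and 2 fell on the deposited values, where 4.67% of all genes rose and 30.4% fell. The median difference was -0.10. After quantile normalization 4 rose and 2 fell, beside 15.7% and 14.6% of all genes, and the median was 0.19. In control hypoxia the median was 0.87, and 8 of the 9 were called lower with HIF1A siRNA than there, with a median of -1.01. PPP1R3B, which brings the phosphatase PP1 to glycogen, read 6.96, 6.72 and 6.79 in normoxia, 8.42, 8.31 and 8.14 in control hypoxia, and 7.20, 7.23 and 7.13 with HIF1A siRNA. It rose by 0.36 (SE 0.11, adjusted p = 0.0292), and this call was lost without any single HIF1A siRNA array and without normoxia replicate 2 or 3, with adjusted p up to 0.0969. PPP1R3C, of the same function, and GYS1, the muscle glycogen synthase, were each at 0.16 and were not called, against 2.13 and 1.96 in control hypoxia. UGP2, which makes the glucose donor for glycogen, fell by 0.97, and PHKA1, a phosphorylase kinase subunit, by 0.72, a call lost without normoxia replicate 1.

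Among genes of mitophagy and the BNIP3 family, BNIP3L, a mitophagy receptor, rose by 0.77 (SE 0.15, adjusted p = 0.00531) and lay 1.10 below control hypoxia. Of 8 measured, 2 rose and 1 fell, with a median of 0.27, and 5 rose and 0 fell after quantile normalization, with a median of 0.65. The fall was that of MAP1LC3B, an autophagosome protein, at -0.46, and it was lost under 11 of 17 settings. List counts in this paragraph stand beside 4.67% of all genes called higher and 30.4% lower, or 15.7% and 14.6% after quantile normalization. Genes known for a preference for HIF-1A over HIF-2A overlapped these lists. Of 17 measured, 9 rose and 1 fell, with a median of 0.51, and 12 rose and 0 fell after quantile normalization, with a median of 0.77, beside a median of 1.39 in control hypoxia. Of 17 genes known for a HIF-2A preference, 4 rose and 1 fell, with a median of 0.04, or 0.20 after quantile normalization. The rises were VEGFA, IGFBP3 with 0.74, the lysyl oxidase LOXL2 with 0.44 and the lipid droplet protein PLIN2 with 0.32, which was lost under 11 settings. The fall was that of the iron transporter SLC11A2, at -0.49, and it was lost under 6 settings, quantile normalization among them. Leaving out normoxia replicate 1 left 2 rises in this list. After quantile normalization of all arrays 6 of its genes rose and 0 fell. In control hypoxia, against the same normoxia arrays, 4 of its genes rose and the median was 0.12. There 3.37% of all genes were called higher.

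Secreted and angiogenic factors rose in part. Of 21 measured, 7 rose and 3 fell, with a median of 0.06, and 10 rose and 1 fell after quantile normalization, with a median of 0.37. Among all genes 4.67% rose and 30.4% fell, or 15.7% and 14.6% after quantile normalization. Beside VEGFA, ANGPTL4 and STC1, the rises were STC2 with 0.80, IGFBP3 with 0.74, IGFBP5 with 0.66 and ADM, the vasodilator adrenomedullin, with 0.63. ANGPT1, the ligand that stabilizes vessels through TEK, read 6.56, 6.32 and 6.31 in normoxia, 6.48, 6.27 and 6.29 in control hypoxia, and 5.51, 5.75 and 5.20 with HIF1A siRNA. The siRNA arrays lay below both other groups, by 0.91 against normoxia (SE 0.14, adjusted p = 0.00298) and by 0.86 against control hypoxia (adjusted p = 0.005). The other falls were CCN1, a matrix signalling protein, with -0.59 and VEGFC, a growth factor of lymphatic vessels, with -0.45, neither of them called after quantile normalization. Without HIF1A siRNA replicate 3 or normoxia replicate 3, 1 fall was left in the list.

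Collagen and matrix enzymes rose or did not pass the test. Of 21 measured, 7 rose and 0 fell, with a median of 0.14, and 11 rose and 0 fell after quantile normalization, with a median of 0.32. Without normoxia replicate 1, 3 rises were left. With all arrays, 4.67% of all genes rose and 30.4% fell, or 15.7% and 14.6% after quantile normalization. The prolyl hydroxylases P4HA1 and P4HA2, the lysyl hydroxylase PLOD1 with 0.45 and LOXL2 rose and were lower than in control hypoxia. COL1A1, the main chain of type I collagen, read 7.22, 7.32 and 7.16 in normoxia, 8.07, 8.02 and 7.93 in control hypoxia, and 7.90, 7.92 and 7.78 with HIF1A siRNA. Its rise was 0.63 (SE 0.09, adjusted p = 0.00273), beside 0.77 in control hypoxia; the nearness of the hypoxic groups is part of the rule that chose it.

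Regulators of the HIF system and oxygen-dependent demethylases were called about as often as all genes, of which 4.67% rose and 30.4% fell on the deposited values. Of 13 HIF subunits and regulators, 0 rose and 5 fell on the deposited values with a median of -0.36, but 2 rose, HIF1A alone fell and the median was 0.03 after quantile normalization. The falls other than HIF1A were ARNT with -0.61, its relative ARNT2 with -0.39, the repressor BHLHE41 with -0.53 and VHL with -0.52, and none of these 4 was called after quantile normalization. On the deposited values the count of falls was 2 without HIF1A siRNA replicate 3, without normoxia replicate 1 or without normoxia replicate 3, and 3 without normoxia replicate 2. BHLHE41 read 7.70, 7.63 and 7.73 in normoxia, 9.22, 8.86 and 8.64 in control hypoxia, and 7.06, 7.41 and 7.0 with HIF1A siRNA. Of 12 demethylases that use oxygen, 1 rose and 2 fell with a median of -0.17, and 3 rose and 0 fell with a median of 0.13 after quantile normalization; KDM4B rose by 0.34, a call lost without normoxia replicate 1. JMJD6 fell by 0.47 on the deposited values and stood at -0.06 after quantile normalization, and KDM6A at -0.66 was lost under 13 settings; without HIF1A siRNA replicate 3, or without any single normoxia array, neither was called.

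Genes linked to ATF4, the transcription factor of the amino acid and stress response, rose in part. Of 31 measured, 14 rose and 0 fell, with a median of 0.34 against -0.12 over all genes, and 27 rose and 0 fell after quantile normalization, with a median of 0.65 against 0.08. These counts stand beside 4.67% of all genes called higher on the deposited values and 15.7% after quantile normalization. In control hypoxia, against the same normoxia arrays, 15 rose and 0 fell, with a median of 0.49. Between the hypoxic groups, 0 of the 31 were called higher and 3 lower with HIF1A siRNA, with a median of -0.10, on a background of 0.857% of all genes called higher and 10.2% lower. After quantile normalization 2 were called higher, MTHFD2 and the cystine transporter SLC7A11, and 2 lower, with a median of 0.01, on a background of 5.1% higher and 7.9% lower. Without HIF1A siRNA replicate 3, 17 rose on the deposited values and 23 after quantile normalization.

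ASNS, which makes asparagine, read 10.39, 10.25 and 10.30 in normoxia, 11.34, 11.19 and 11.10 in control hypoxia, and 11.31, 11.20 and 11.06 with HIF1A siRNA. The hypoxic groups overlapped and both lay above normoxia. The rise with HIF1A siRNA was 0.88 (SE 0.10, 1.84-fold, adjusted p = 0.00182), and the difference from control hypoxia was -0.02 with a 95% interval from -0.23 to 0.20. CBS, which condenses homocysteine with serine, read 7.15, 7.26 and 7.18 in normoxia, 8.69, 8.56 and 8.36 in control hypoxia, and 8.5, 8.32 and 8.24 with HIF1A siRNA. It rose by 1.15 (SE 0.11, 2.23-fold, adjusted p = 0.000816), with a difference from control hypoxia of -0.18 and an interval from -0.43 to 0.07. AARS1, the alanyl-tRNA synthetase and no member of the list, read 10.72, 10.65 and 10.69 in normoxia and 11.37, 11.44 and 11.12 with HIF1A siRNA. Its rise was 0.62 (SE 0.10, 1.54-fold, adjusted p = 0.00333), with a difference from control hypoxia of -0.01 and an interval from -0.23 to 0.21. ASNS, CBS and AARS1 were picked because that difference lay within 0.2 of 0, so its size is no finding; the intervals allow differences on either side.

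CHAC1, which degrades glutathione and is a common marker of ATF4 activity, read 5.97, 6.11 and 6.33 in normoxia, 7.12, 6.98 and 6.96 in control hypoxia, and 7.81, 7.56 and 6.78 with HIF1A siRNA. It rose by 1.25 (SE 0.22, 2.38-fold, adjusted p = 0.00428), and HIF1A siRNA replicate 3 lay below all 3 control hypoxia arrays while the other two lay above them. The difference from control hypoxia, 0.36 (SE 0.22, interval -0.13 to 0.85), was not called. It was 0.67 and called without HIF1A siRNA replicate 3 (adjusted p = 0.0353), and 0.82 when quantile normalization was used as well; over 19 settings it ran from 0.15 to 0.82, with adjusted p from 0.0077 to 0.641. PSAT1, of serine synthesis, rose by 0.92 and did not differ by the test from control hypoxia (-0.32, interval -0.74 to 0.11). Further rises of the list were MTHFD2 of mitochondrial folate metabolism with 0.87, the glycyl-tRNA synthetase GARS1 with 0.70, TRIB3, a pseudokinase that feeds back on the response, with 0.65, and PHGDH, the entry to serine synthesis, with 0.57. ATF4 transcript itself was at 0.07 and was not called. On the deposited values VEGFA, VLDLR and STC2 were the 3 members called lower with HIF1A siRNA than in control hypoxia, by 0.93, 1.62 and 0.60, and after quantile normalization STC2 was not called.

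Other genes that rose and lay near their control hypoxia levels were FREM2, an extracellular matrix protein, with 0.76 and LBP, a lipopolysaccharide-binding protein, with 0.72. The call for FREM2 was lost without normoxia replicate 3 (adjusted p = 0.0551, the highest of its settings), and that for LBP after quantile normalization without HIF1A siRNA replicate 3 (adjusted p = 0.0631, likewise the highest). With ASNS, CBS, AARS1 and COL1A1 these were all 6 genes with values above the lowest quartile that met the rule for such rises.

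On the deposited values, 3 such genes were called at least 1.5-fold higher with HIF1A siRNA than in normoxia and also higher than in control hypoxia. On that scale 0.857% of all genes were called higher than in control hypoxia, against 5.1% after quantile normalization. The same 3 HIF1A siRNA arrays enter both differences. MYCN, a transcription factor of the MYC family, read 7.75, 7.77 and 7.95 in normoxia, 7.47, 7.91 and 7.93 in control hypoxia, and 8.44, 8.68 and 8.91 with HIF1A siRNA. All 3 siRNA arrays lay above the 6 others, by 0.85 against normoxia (SE 0.19, 1.81-fold, adjusted p = 0.0086) and 0.90 against control hypoxia (SE 0.19, adjusted p = 0.0161). The probe sets of MYCN disagreed: with their mean the rise was 0.26 and was not called (adjusted p = 0.072, the highest of its settings). MS4A1, the B-cell antigen CD20, read 5.84, 5.42 and 5.50 in normoxia, 5.34, 5.53 and 5.54 in control hypoxia, and 6.18, 6.79 and 6.41 with HIF1A siRNA, a rise of 0.87 (SE 0.21, adjusted p = 0.0115) and 0.99 above control hypoxia (adjusted p = 0.0169). TNFRSF12A, the receptor of the cytokine TWEAK, read 9.68, 9.76 and 9.86 in normoxia and 10.82, 10.29 and 9.97 with HIF1A siRNA. Its rise of 0.59 (SE 0.18, adjusted p = 0.0286) was lost without HIF1A siRNA replicate 1 and without any single normoxia array, with adjusted p up to 0.0937. The differences from control hypoxia were lost without control hypoxia replicate 1 for all 3 genes, without HIF1A siRNA replicate 3 for MYCN and MS4A1, and without control hypoxia replicate 3 for TNFRSF12A.

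**Figure D4:**
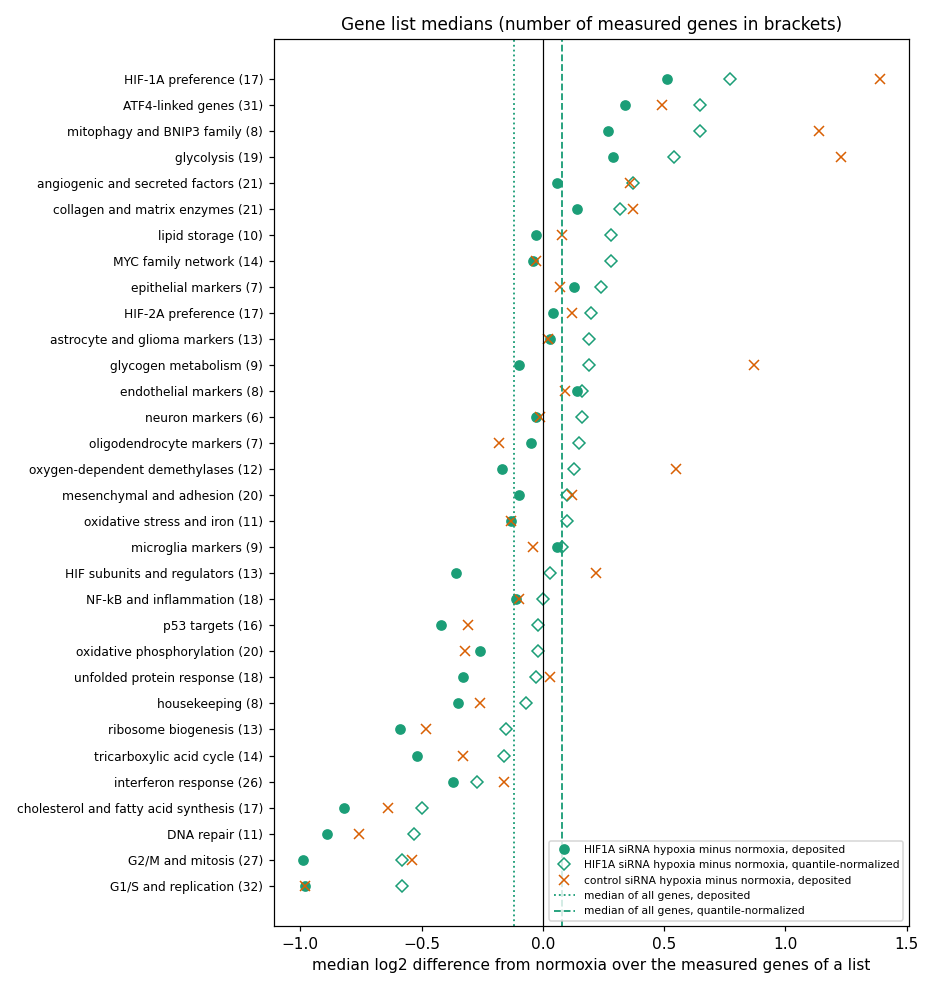
Median log2 difference from normoxia (x axis) over the measured genes of each of 32 lists (y axis, number of genes in brackets), for hypoxia with HIF1A siRNA on the deposited values (filled circles) and after quantile normalization (open diamonds), and for control hypoxia on the deposited values (crosses). Vertical lines mark 0 and the medians of all genes, -0.12 (dotted) and 0.08 (dashed). Glycolysis is at 0.29, 0.54 and 1.23 and the ATF4-linked list at 0.34, 0.65 and 0.49, while G1/S is at -0.98, -0.58 and -0.98 and G2/M at -0.99, -0.58 and -0.54.

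Of the 32 lists, the G1/S and G2/M lists of cell division had the lowest medians with HIF1A siRNA, on both scales. Of 32 measured genes of the G1/S transition and DNA replication, 0 rose and 31 fell, with a median of -0.98 against -0.12 over all genes, and 26 fell after quantile normalization, with a median of -0.58 against 0.08. With HIF1A siRNA, 30.4% of all genes were called lower on the deposited values and 14.6% after quantile normalization. In control hypoxia, against the same normoxia arrays, 28 fell and the median was also -0.98 (8.95% of all genes were called lower there). POLE2, a subunit of DNA polymerase epsilon, read 6.18, 5.88 and 6.0 in normoxia, 5.17, 4.42 and 4.62 in control hypoxia, and 4.42, 4.60 and 3.84 with HIF1A siRNA. The hypoxic arrays all lay below normoxia, and the fall with HIF1A siRNA was 1.73 (SE 0.23, 3.32-fold, adjusted p = 0.00239). CCNE2, cyclin E2, fell by 1.57, CLSPN, the checkpoint adaptor claspin, by 1.53, and CDC6, which loads the replicative helicase, by 1.44. Between the hypoxic groups these 4 genes differed by -0.45, -0.09, -0.18 and -0.38, none of them called. Over the whole list 0 members were called between the hypoxic groups on the deposited values, with a median of -0.06. After quantile normalization 7 of 32 were called higher with HIF1A siRNA, against 5.1% of all genes, and 0 lower, with a median of 0.18; among them were the helicase subunits MCM2, MCM3 and MCM4 and the factors E2F1 and E2F2.

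Of 27 genes of G2/M and mitosis, 0 rose and 25 fell, with a median of -0.99, and 19 fell after quantile normalization, with a median of -0.58. Of all genes, 30.4% fell on the deposited values and 14.6% after quantile normalization. In control hypoxia 6 of the 27 fell on the deposited values, beside 8.95% of all genes, and the median was -0.54. Quantile normalization without HIF1A siRNA replicate 3 left 9 falls here, with a median of -0.50, and 21 in the G1/S list, with a median of -0.51. SPC25, a subunit of the NDC80 kinetochore complex, read 8.74, 8.15 and 8.30 in normoxia, 7.05, 5.86 and 6.65 in control hypoxia, and 6.63, 6.68 and 5.56 with HIF1A siRNA. It fell by 2.10 (SE 0.36, 4.30-fold, adjusted p = 0.00384), and its difference of -0.23 between the hypoxic groups was 0.13 without HIF1A siRNA replicate 3. TTK, the MPS1 checkpoint kinase, fell by 1.76, KIF11, the spindle motor Eg5, by 1.57, and NUF2, a partner of SPC25, by 1.47. Over the 27 genes the median difference between the hypoxic groups was -0.34 on the deposited values and -0.13 after quantile normalization. Over all genes it was -0.05 and 0.07. Against control hypoxia, the deposited values called CCNB2, cyclin B2, lower by 1.04 and no member higher. After quantile normalization CCNB2 was not called and AURKB, a kinase of chromosome segregation, was called higher, by 0.40. Of 11 DNA repair genes, 10 fell, with a median of -0.89, and 9 fell after quantile normalization, with a median of -0.53. The shares of all genes were again 30.4% and 14.6%. When HIF1A siRNA replicate 3 was dropped, 3 falls were left after quantile normalization. BLM, a RecQ helicase, fell by 1.44, BRIP1, a helicase partner of BRCA1, by 1.30, and the exonuclease EXO1 by 1.24.

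**Figure D5:**
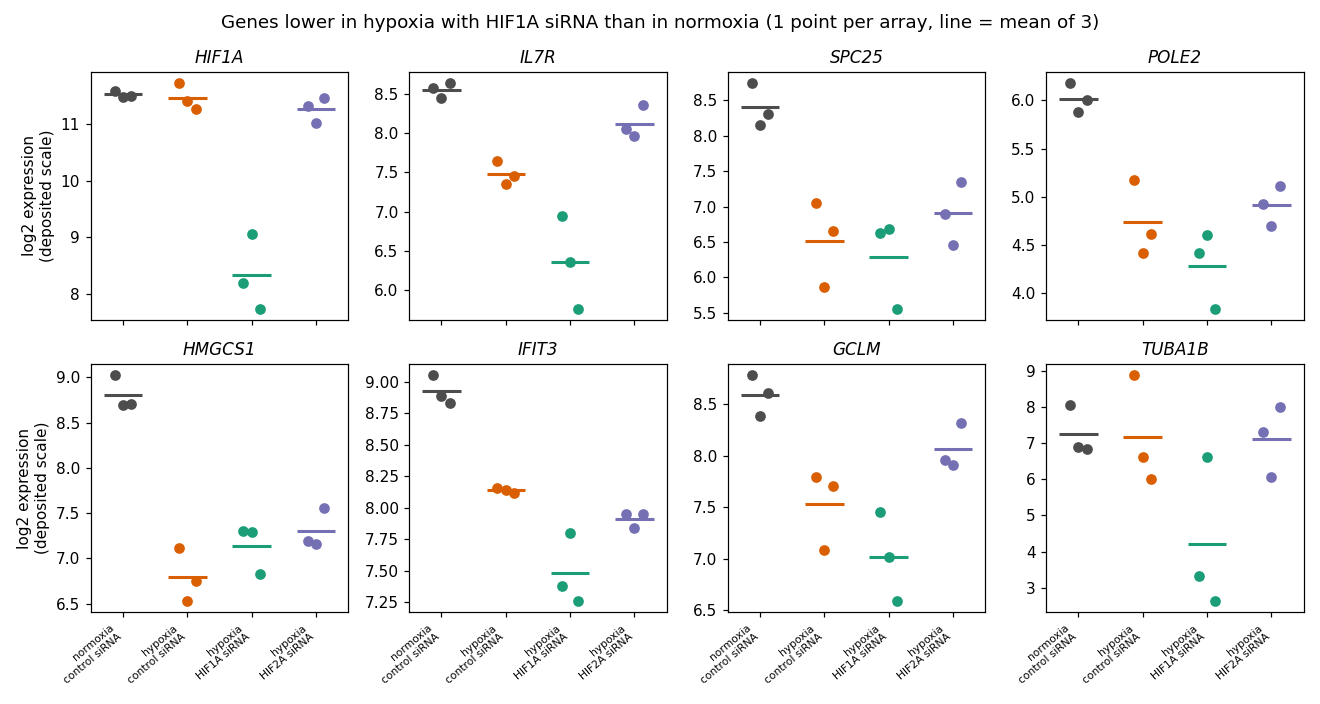
Log2 expression on the deposited scale (y axis, a separate range in each panel) of 8 genes in the 4 groups (x axis), with 1 point per array and a line at the mean of 3 arrays. SPC25, POLE2 and HMGCS1 are low in all 3 hypoxic groups, IL7R and GCLM are lowest with HIF1A siRNA, and TUBA1B is low in HIF1A siRNA replicates 1 and 3 but not in replicate 2.

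Sterol and fatty acid synthesis fell. Of 17 measured genes, 0 rose and 16 fell, with a median of -0.82, and 9 fell after quantile normalization, with a median of -0.50. The shares of falls over all genes were 30.4% and 14.6%. HMGCS1, an early enzyme of the mevalonate pathway, read 9.02, 8.69 and 8.70 in normoxia, 7.12, 6.53 and 6.75 in control hypoxia, and 7.30, 7.29 and 6.83 with HIF1A siRNA. It fell by 1.66 (SE 0.19, 3.16-fold, adjusted p = 0.00182) and overlapped control hypoxia. ELOVL6, a fatty acid elongase, fell by 1.82, SQLE, an oxygen-using epoxidase of sterol synthesis, by 1.37, and INSIG1, which holds back the SREBP factors, by 1.31. The fatty acid synthase FASN, called lower than in normoxia by 0.34 on the deposited values and at 0.06 after quantile normalization, was 0.56 higher than in control hypoxia. Of 10 lipid storage genes, 1 rose and 3 fell on the deposited values, beside 4.67% and 30.4% of all genes, with a median of -0.03. After quantile normalization 5 rose and 2 fell, beside 15.7% and 14.6% of all genes, with a median of 0.28. LPIN1, a phosphatidate phosphatase, fell by 1.04, and HILPDA, a lipid droplet protein at 2.53 above normoxia in control hypoxia, was at 0.36 and was not called.

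Some of the largest falls were uneven between arrays. TUBA1B, an alpha tubulin with near-identical relatives whose signals an array may share, read 8.06, 6.90 and 6.85 in normoxia and 3.33, 6.63 and 2.63 with HIF1A siRNA. Replicate 2 lay just below normoxia while replicates 1 and 3 were far below, and the fall of 3.08 (SE 1.00, adjusted p = 0.0351) was lost under 9 of 17 settings, with adjusted p up to 0.166. Leaving out HIF1A siRNA replicate 1 or 3, or any single normoxia array, ended the call. RAP1B, a small GTPase, read 7.42, 6.87 and 6.79 in normoxia and 3.95, 6.61 and 3.43 with HIF1A siRNA, the same order of arrays. Its fall of 2.36 (adjusted p = 0.0229) was lost under 8 settings, among them those without HIF1A siRNA replicate 1 or 3 and without normoxia replicate 1 or 3, with adjusted p up to 0.125. SDHC, a subunit of mitochondrial complex II, fell by 2.22 and was lost under 5 settings, among them those without HIF1A siRNA replicate 3 or normoxia replicate 1 or 3. H2BC3, a replication-dependent histone of a family with near-identical members, read 8.65, 8.59 and 8.49 in normoxia, 7.12, 5.95 and 6.78 in control hypoxia, and 6.23, 5.95 and 4.67 with HIF1A siRNA. Its fall of 2.96 (SE 0.46, 7.80-fold, adjusted p = 0.00298) was called under every setting run. The 15 largest falls also held HIF1A, IL7R, SPC25, NEXN, ELOVL6 and TTK, and 5 genes with falls from 1.85 to 1.76, each called under at least 15 of the 17 settings: the centrosomal CEP15, the thiopurine methyltransferase TPMT, MTBP, RWDD4 and the tubulin-processing SVBP.

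A further set was called at least 1.5-fold lower with HIF1A siRNA than in normoxia, and also lower than in control hypoxia. On the deposited values it held 586 of the 11494 genes above the lowest quartile, HIF1A among them. There 10.2% of all genes were called lower than in control hypoxia, and 7.9% after quantile normalization. Both differences use the same 3 HIF1A siRNA arrays, so they are not separate results. The set was not counted after quantile normalization. After HIF1A, 5 genes led the set. IL7R, the interleukin 7 receptor, read 8.58, 8.45 and 8.64 in normoxia, 7.64, 7.35 and 7.45 in control hypoxia, and 6.94, 6.36 and 5.76 with HIF1A siRNA. The 3 groups did not overlap, with a fall of 2.20 from normoxia (SE 0.24, 4.61-fold, adjusted p = 0.00131) and of 1.13 from control hypoxia (SE 0.24, adjusted p = 0.0156). NEXN, an actin-binding protein, fell by 1.88 from normoxia and by 1.06 from control hypoxia. PNPLA8, a mitochondrial phospholipase, fell by 1.74 and 1.33, EXOC6, a subunit of the exocyst, by 1.71 and 1.63, and SLC36A4, an amino acid transporter, by 1.62 and 1.34. EXOC6 read 8.0, 7.37 and 7.41 in control hypoxia, overlapping its 7.79, 7.56 and 7.66 in normoxia, and 5.95, 6.55 and 5.36 with HIF1A siRNA. The differences from control hypoxia were lost without control hypoxia replicate 1 for IL7R, NEXN, PNPLA8 and SLC36A4 (adjusted p up to 0.151), and for NEXN also without HIF1A siRNA replicate 1 or 3 or control hypoxia replicate 3; EXOC6 was called under every setting run. Falls that were also called in control hypoxia, and chosen for deposited levels within 0.2 of it, were THEM4, a thioesterase, with 1.51, CENPU, a centromere protein, with 1.45, TNFAIP6, which binds hyaluronan, with 1.41, and PIK3R3, a regulatory subunit of PI3-kinase, with 1.40, beside CCNE2 and CLSPN. After quantile normalization THEM4 lay 0.40 and PIK3R3 0.21 above control hypoxia.

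Of 26 interferon-response genes, 2 rose and 13 fell on the deposited values, where 4.67% of all genes rose and 30.4% fell, with a median of -0.37 against -0.12. After quantile normalization 3 rose and 11 fell, where 15.7% and 14.6% of all genes did, with a median of -0.27 against 0.08. IFIT3, an antiviral effector, read 9.05, 8.89 and 8.83 in normoxia, 8.16, 8.14 and 8.12 in control hypoxia, and 7.38, 7.80 and 7.26 with HIF1A siRNA. The groups were fully apart, by 1.44 from normoxia (SE 0.13, 2.72-fold, adjusted p = 0.000582) and by 0.66 from control hypoxia (adjusted p = 0.012). IFI44 fell by 1.52, TLR3, a sensor of double-stranded RNA, by 1.31 and IFIT2 by 1.09, while ISG15 rose by 0.42 and IFI27 by 0.31. Of 11 genes of oxidative stress and iron, 2 rose and 5 fell. GCLM and GCLC, the subunits of the enzyme that limits glutathione synthesis, fell by 1.57 and 1.16, TXNRD1, a thioredoxin reductase, by 0.73, and GCLM read 8.78, 8.39 and 8.61 in normoxia and 7.45, 7.02 and 6.59 with HIF1A siRNA. The median of this list was -0.13 on the deposited values but 0.10 after quantile normalization, with 3 rises and 4 falls.

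In the remaining lists most falls on the deposited values were not called after quantile normalization. Their counts stand beside 4.67% of all genes called higher and 30.4% lower on the deposited values, and 15.7% and 14.6% after quantile normalization, so that oxidative phosphorylation, NF-kB and mesenchymal genes had falls at about the share of all genes. Of 20 oxidative phosphorylation genes, 7 fell and 0 rose (median -0.26), and 2 fell and 2 rose after quantile normalization (median -0.02). COX7B, a subunit of complex IV, fell by 0.86. Among 14 tricarboxylic acid cycle genes 9 fell (median -0.52), and 3 fell after quantile normalization (median -0.16), led by SUCLA2 with 1.15 and MDH1 with 0.88 on the deposited values. Of 13 ribosome biogenesis genes, 6 fell (median -0.59) and 2 after quantile normalization (median -0.15). RRS1, a ribosome assembly factor, fell by 0.61 from normoxia on the deposited values, was at -0.18 and not called after quantile normalization, and lay 0.58 above control hypoxia.

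Of 18 genes of the unfolded protein response, which handles misfolded proteins in the endoplasmic reticulum, 8 fell and 0 rose (median -0.33), against 2 falls and 2 rises after quantile normalization (median -0.03); the co-chaperones DNAJC3 and DNAJB11 fell by 0.92 each, the first lost under 11 settings. Of 16 p53 targets, 10 fell and 0 rose (median -0.42), against 1 fall and 2 rises (median -0.02), with MDM2, the ligase for p53, at -0.79 on the deposited values and not called after quantile normalization. Of 18 NF-kB and inflammation genes, 1 rose and 4 fell (median -0.11), against 3 rises and 0 falls (median 0.00). The rise was that of PTGS2, cyclooxygenase 2, which read 7.48, 7.30 and 7.26 in normoxia, 9.54, 9.42 and 9.60 in control hypoxia and 8.15, 8.0 and 7.52 with HIF1A siRNA; it was lost without HIF1A siRNA replicate 1 or 2 and without normoxia replicate 2 or 3. Of 20 mesenchymal and adhesion genes, 5 fell (median -0.10), against 2 falls and 4 rises (median 0.10), with the factors ZEB1 at -0.95 and SNAI2 at -0.69 called on both scales. Both calls were lost with the replicate block and quantile normalization together. They were also lost after quantile normalization without HIF1A siRNA replicate 3, and limma's adjusted p ran up to 0.125 and 0.128. Of 14 genes of the MYC network, 3 rose and 2 fell (median -0.04), against 4 rises and 0 falls (median 0.28). Beside MYCN the rises were those of TXNIP, an inhibitor of thioredoxin that is sensitive to glucose, with 0.55, and its relative ARRDC4 with 0.45, a call lost without any single HIF1A siRNA array.

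Single arrays moved the counts of falls in several of these lists by more than 1.5 times on the deposited values. Without HIF1A siRNA replicate 3 the falls were 1 in oxidative phosphorylation, 3 in the unfolded protein response, 2 in p53 targets, 1 in NF-kB and 2 in mesenchymal genes. Without normoxia replicate 1 they were 2, 3, 2, 1 and 2 in the same lists. Without normoxia replicate 2 they were 3, 4, 8, 2 and 2, and without normoxia replicate 3 they were 2, 3, 6, 1 and 2.

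HIF2A siRNA was compared with the non-targeting siRNA in hypoxia on 6 arrays that share none with the comparison above. The tests are not independent, because limma estimated the spread of each gene over all arrays and used it in both. By limma, EPAS1 was the only gene called lower (0.00703% of all genes) and 0 genes were called higher, with 247 lower and 255 higher at an unadjusted p under 0.05. EPAS1 read 7.18, 6.99 and 7.18 with HIF2A siRNA, 2.59 below control hypoxia. Of the 81 genes at least 1.5-fold higher with HIF1A siRNA than in normoxia, 0 were called with HIF2A siRNA. At an unadjusted p under 0.05 by limma, 6 were lower (7.41%, against 1.74% of all genes) and 7 higher (8.64%, against 1.79%). The 81 genes were chosen by a test that favours a small spread, which can raise both shares. The shares can therefore not be read against those of all genes, and an effect of HIF2A siRNA on this set was not tested. NDRG1 differed by -0.25 with HIF2A siRNA, VEGFA by -0.07, HK2 by 0.18, ASNS by 0.29 and IGFBP3 by -0.56, none of them called. Over 14232 genes the difference between HIF1A siRNA hypoxia and normoxia correlated with the HIF2A siRNA difference at r = -0.11, a description across genes, which are not independent.

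Marker lists were read against a level of 4.79, the highest lower quartile of any array, since levels of different probe sets cannot be ranked. By their mean over 12 arrays 3 of 13 astrocyte and glioma markers lay below it, among them AQP4 and SLC1A2, while VIM, FABP7, S100B, NES, CD44 and GFAP lay above it. Of markers of other cell types, 4 of 9 microglia, 4 of 8 endothelial and 2 of 7 epithelial markers lay below it, including PTPRC, PECAM1 and EPCAM, and 0 of 6 neuron and 0 of 7 oligodendrocyte markers did. With HIF1A siRNA, FABP7, a fatty acid binding protein of glia, fell by 0.72, CD44, a hyaluronan receptor, fell by 0.42 but was at 0.00 after quantile normalization, and GFAP rose by 0.34. Of 9 microglia markers CD68 and TYROBP rose by 0.41 and 0.36. Of 8 endothelial markers CLDN5 and ESAM rose by 0.38 and 0.30. Each of these 4 calls, and that of GFAP, was lost without normoxia replicate 1. Over all genes 4.67% were called higher on the deposited values. After quantile normalization 15.7% of all genes were, and 2 members each of the microglia and endothelial lists. None of the neuron, oligodendrocyte or epithelial markers passed the test on the deposited values. The summed linear level of the microglia list was 570 to 688 with HIF1A siRNA and 500 to 531 in normoxia, and that of the endothelial list 383 to 389 and 312 to 330. The microglia sum was also 523 to 596 in control hypoxia and 570 to 597 with HIF2A siRNA. In the same groups the endothelial sum was 322 to 370 and 312 to 372. Sums with HIF1A siRNA were below normoxia for astrocyte and glioma markers (10800 to 13500 against 14200 to 15400). The same held for oligodendrocyte markers (2430 to 2920 against 2970 to 3210). For neuron and epithelial markers both groups overlapped. The part of other cell types in the results was not tested. Of 8 housekeeping genes, 3 fell on the deposited values, YWHAZ by 1.18, HPRT1 by 0.98 and PPIA by 0.74, and 0 were called after quantile normalization. Falls over all genes were 30.4% and 14.6% on these scales. YWHAZ read 8.95, 8.71 and 8.88 in normoxia and 7.12, 8.79 and 7.10 with HIF1A siRNA, so that replicate 2 lay within the normoxia range. Without HIF1A siRNA replicate 3, or normoxia replicate 1 or 3, 0 housekeeping genes were called, and 1 without normoxia replicate 2.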

How the data were processed

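Total RNA of LN229 cells was measured on 12 Affymetrix arrays in 4 groups of 3, grouped by sample title. The deposited values are the authors' log2 expression, 1 per probe set and array; base 2 was inferred from their range of 1.14 to 14.27. Partek and the build hg18 are named in the submitters' processing notes; how background was corrected and how probe sets were summarized and normalized is not given in the sources used here. Of 22011 probe sets, 14432 have 1 gene symbol in the platform annotation, 2408 several and 5171 none here; 14404 of the 14432 were found by gene ID in a RefSeq table of GRCh38.p14, and 0 symbols were updated. For 197 genes with several such probe sets the one with the highest mean over the 12 arrays was used, which gave 14232 genes.

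The test was limma's moderated test (version 3.58.1, R 4.3.3; lmFit over all 12 arrays with a mean per group, eBayes), adjusted by Benjamini and Hochberg over 14232 genes, and called at an adjusted p under 0.05. Errors are limma's standard errors, n = 3 arrays per group, and this number limits the precision. Files were read with the R package data.table, version 1.17.8, and figures drawn with matplotlib 3.10.9. The procedure was tested on simulated data. Promoters came from a RefSeq table, which held entries for 11385 of the genes.

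The members, the 32 gene lists, the tests and the naming rule were chosen with earlier results of these data known. The rule named HIF1A and EPAS1; the 15 largest rises and 15 largest falls among called genes with a mean of at least 4.79 (above the lower quartile of every array) and groups that do not overlap; up to 6 each way, at 1.5-fold or more, that were called the same way against control hypoxia, or that lay within 0.2 of it; those also lower with HIF2A siRNA, of which there were 0; up to 4 called genes per list; and 4 promoters. Of the first 2 sets there were 3 and 6 rises. Other list members were named after their values were seen.

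Replicate numbers are shared between groups, but deviations of same-numbered arrays correlated at 0.00, -0.13 and 0.04, so the arrays were not treated as paired. Alternatives were other scalings, 6 arrays, a replicate block, moderation, array weights, a low-value filter, the mean of probe sets, and leaving out each array. Quantile normalization without HIF1A siRNA replicate 3, and leaving out control hypoxia arrays, were added after seeing the data.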

Additional observations from a re-analysis of the deposited data

How the results depend on the processing

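For genes called higher than in normoxia (664 on the deposited values), the count was 2241 after quantile normalization, 1795 after cyclic loess, 2882 after median centring, 316 with the 6 arrays of both groups alone, 1860 with the replicate block and quantile normalization, and 149 to 582 when 1 array was left out. For genes called lower (4322), it was 2082, 2216 and 3306 with the same scalings, 2934 with 6 arrays, 1784 with the replicate block and quantile normalization, 817 after quantile normalization without HIF1A siRNA replicate 3, and 2212 to 4580 when 1 array was left out. The replicate block alone gave 621 and 4206. Same-numbered arrays were not treated as paired, though correlations over so few arrays cannot exclude a pairing. HIF1A stayed called under all settings, from -3.56 to -2.67. Of 125 named genes over 17 settings, 56 kept direction and call throughout, 68 lost the call under at least 1 setting, and 4 changed sign. EPAS1 turned from -0.29 to 0.14, 0.13 and 0.14 after quantile normalization, cyclic loess and the block with quantile normalization, and MLX from -0.36 to 0.09, 0.07 and 0.09. After quantile normalization without HIF1A siRNA replicate 3, EPAS1 was 0.14, MLX 0.01, JMJD6 0.01 and SNAI1 0.03. The difference of SPC25 between the hypoxic groups turned from -0.23 to 0.13 without HIF1A siRNA replicate 3, 0.03 without control hypoxia replicate 1 and 0.21 after quantile normalization without HIF1A siRNA replicate 3; it was -0.56 without control hypoxia replicate 2. The 3 scalings share the construction that arrays are brought to a common centre or distribution; which scale is closer to the RNA content of the cells was not tested. Signal near the lower end of the arrays limits small changes of weak genes.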
